A study of Mus musculus with 2 samples.

Results

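Aldo-keto reductases and aldehyde dehydrogenases were examined in 661W, a mouse cell line with features of cone photoreceptors that was immortalised with the simian virus large T antigen. The members were all genes on the array whose file name starts with Akr or Aldh and a number, apart from 5 genes of folate and retinoic acid metabolism (Aldh1l1, Aldh1l2, Aldh1a1, Aldh1a2 and Aldh1a3). This gave 33 genes, 17 of them Akr and 16 Aldh, of 29608 named features on the array. The family was chosen by the log2 difference of Akr1b7 between the arrays, which had stood out, so that value is given as a description. One culture had spent 3 days in DMEM/F12 without choline and the other in DMEM/F12 with it. The labels attach a figure of 8.98 g/L to the choline-sufficient medium, which could not be checked here. Per the growth protocol the line is kept with fetal bovine serum, and the labels name no genetic change in either culture. Total RNA of each condition went onto 1 Agilent single-colour array, both arrays on 1 slide. The design text speaks of RNA pooled from 4 dishes and does not say whether that was per condition. There are therefore no replicates, and no difference could be tested. In RNA from whole cultures, fewer cells of a type and less RNA per cell cannot be told apart.

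Aldo-keto reductases use NADPH to reduce aldehydes and ketones, among them sugars, steroids, prostaglandins and products of lipid peroxidation, to alcohols. Aldehyde dehydrogenases instead oxidise aldehydes to carboxylic acids with NAD or NADP. In the retina both families matter because photoreceptor membranes are rich in polyunsaturated fatty acids, whose peroxidation yields reactive aldehydes. Some of these enzymes also touch choline: betaine aldehyde, the intermediate between choline and betaine, is a substrate of the Aldh7a1 and Aldh9a1 products.

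Each array was scaled to its 75th percentile (1609 and 1280 in signal units), and the difference given is log2 of the level without choline minus log2 of the level with it. A negative value therefore means a lower scaled level without choline. Signals given for genes are before scaling, so a signal can be higher without choline although the difference is negative. The ± value is the scanner software's error for both arrays together, with a median of 0.20 over all genes, and it does not cover variation between cultures. A gene was measured when a probe was well above background on both arrays. That held for 19816 genes, among them 25 of the 33 members. Genes at least 1.5-fold apart, which is 0.58 on the log2 scale, were counted. Of all measured genes 14.8% were higher and 14.1% were lower by that size on the choline-deficient array, and the median of all genes was -0.10. Spots well above background made up 70.7% and 68.5% of the 2 arrays. Of 10 cone markers 7 were above background on each array, but the cone opsin gene Opn1sw and Cngb3 were so on neither, nor were the photoreceptor regulator genes Crx and Nrl. Of 8 fibroblast markers 7 were above background on each array, and their summed signal was 124227 without choline and 11679 with it. All marker sums are of signals before scaling, so they also hold the difference in brightness between the arrays (75th percentiles of 1609 and 1280). Lum was above background on neither array. For 6 macrophage markers, all above background, the sums were 4991 and 2864, and for 6 Muller glia markers, of which 4 and 3 were above background and Kcnj10 and Sox2 on neither array, they were 4149 and 1539. The part of these differences in the results below was not tested.

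The 4 Akr1b genes lie next to each other on chromosome 6, and the results turn on the contrast between Akr1b7 and the others. Their probes are 60 bases long. The first 30 bases of each are shown, 5′ to 3′, because a single probe carries the whole Akr1b7 result.
Akr1b7 probe at chr6:34372905-34372964 (mm9, + strand): gagatccgtgcatgatagattccttcgtct
Akr1b8 probe at chr6:34318338-34318397 (mm9, + strand): aacggacatctccttcactaatttgacctg
Akr1b10 probe at chr6:34346689-34346748 (mm9, + strand): tcttcactgatatgcaacccgctcctactg
Akr1b10 probe at chr6:34346793-34346852 (mm9, + strand): catgttcaactagaagcagactgtcacagg
Akr1b3 probe at chr6:34253930-34253982 (mm9, - strand): ttacccccctggaggactttaacacaagta
Akr1b3 probe at chr6:34260573-34260632 (mm9, - strand): atggaacaactagtggatgaaggtttggtg
Positions are as the scanner files print them, and the first Akr1b3 interval spans 53 bases, fewer than its probe of 60. Members of a subfamily are similar in sequence, and whether a probe also binds a relative's transcript was not tested.

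The promoters of 27 of the 33 members were found in the RefSeq table of GRCm38.p6, each running from 250 bases before to 50 bases after the gene's start. Those of the 3 neighbouring Akr1b genes in the table are shown, as their differences between the arrays were unlike. Capitals mark the longest run of bases shared by 2 of them.
Akr1b7 promoter, chr6:34412112-34412411 (GRCm38.p6, + strand): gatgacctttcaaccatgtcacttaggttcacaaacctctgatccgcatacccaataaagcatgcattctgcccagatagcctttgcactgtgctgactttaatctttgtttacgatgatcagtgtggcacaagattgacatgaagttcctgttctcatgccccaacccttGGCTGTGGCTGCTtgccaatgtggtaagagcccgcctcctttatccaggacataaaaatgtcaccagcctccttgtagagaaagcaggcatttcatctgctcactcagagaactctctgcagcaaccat
Akr1b8 promoter, chr6:34353896-34354195 (GRCm38.p6, + strand): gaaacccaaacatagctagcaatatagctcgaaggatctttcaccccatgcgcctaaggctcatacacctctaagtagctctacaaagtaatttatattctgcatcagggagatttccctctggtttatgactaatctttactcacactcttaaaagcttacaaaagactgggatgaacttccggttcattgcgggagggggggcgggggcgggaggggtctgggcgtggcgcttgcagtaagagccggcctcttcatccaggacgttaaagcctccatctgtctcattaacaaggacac
Akr1b10 promoter, chr6:34383997-34384296 (GRCm38.p6, + strand): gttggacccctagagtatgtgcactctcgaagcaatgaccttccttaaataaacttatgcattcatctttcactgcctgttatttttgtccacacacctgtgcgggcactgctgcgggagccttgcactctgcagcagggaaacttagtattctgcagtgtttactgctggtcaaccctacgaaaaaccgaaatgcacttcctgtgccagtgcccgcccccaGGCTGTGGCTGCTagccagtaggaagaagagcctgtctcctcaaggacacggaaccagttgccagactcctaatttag
The shared run GGCTGTGGCTGCT has 13 bases and starts at position -79 from the Akr1b7 start and -28 from the Akr1b10 start. On either strand it is held by 4 of 32851 promoters (0.0122%). The best local alignment of the Akr1b7 and Akr1b10 promoters had 91 identical of 132 aligned bases, and that of the Akr1b7 and Akr1b8 promoters 100 of 148. The Akr1b8 and Akr1b10 promoters aligned over 32 bases, of which 23 were identical. A search on both strands for the antioxidant response element core TGACNNNGC, the AP-1 site TGANTCA and the E-box CACGTG found none of them in these 3 windows. TGACNNNGC and TGANTCA can overlap, and the 3 motifs were present in 12.4%, 7.81% and 7.15% of all promoters. Among 28 member promoters, where Aldh6a1 counts with 2, TGACNNNGC was found in those of Akr1c19, Akr1cl and Aldh9a1, CACGTG in those of Akr1c21, Aldh18a1 and Aldh3a2, and TGANTCA in 0.

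Akr1b7, first described as a secretory protein of the vas deferens and also known from the adrenal cortex as a reductase of aldehydes released in steroid synthesis, was far lower without choline. Its processed signal was 71.6 on the choline-deficient array and 2902 on the choline-sufficient array. The scanner software called both signals well above background. After scaling, the log2 difference was -5.67 ± 0.21, a 51.0-fold lower level. This was the second lowest difference among the 19816 measured genes. Across the spot, 68 pixels on the choline-deficient array averaged 97.5 before background subtraction, with an SD of 21.5 and a local background of 26.0. On the choline-sufficient array 60 pixels averaged 2852 with an SD of 396, over a local background of 24.0. These SDs describe pixels within a spot, not cultures, and each array holds only 1 spot and 1 probe for this gene. The log2 difference was -4.83 with normexp background correction, which adds an offset to both signals.

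The 3 neighbours of Akr1b7 in the same subfamily did not share this difference. Akr1b8, a reductase gene first found as induced by fibroblast growth factor, had 10 spots of its probe on each array. Their signals ran from 25222 to 28819 without choline, with a median of 26945, and from 19198 to 21489 with choline, with a median of 19929. After scaling, the difference between the arrays was 0.09 ± 0.20 and ranged from 0.06 to 0.15 over the 10 spots, with an SD of 0.025. With median scaling the mean was -0.03. The signals did not overlap, but the arrays' overall brightness differed by nearly as much, so little was left after scaling.

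Akr1b10 had signals of 3059 and 1890 at one probe and 4829 and 3179 at the other, for the choline-deficient and the choline-sufficient array in that order. Its 2 probes gave 0.36 and 0.27 and their mean was 0.32 ± 0.20, 1.25-fold higher without choline, and 0.59 with spike-in scaling, past 1.5-fold. Akr1b3, the mouse aldose reductase gene, whose product turns glucose into sorbitol, was 1.45-fold lower at -0.54 ± 0.20. Its probe signals were 2142 against 2628 and 21825 against 23796, and the probes gave -0.63 and -0.46. Akr1b3 thus lay just inside 1.5-fold, and with median scaling it was -0.66, past that size.

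The difference of Akr1b7 was 35.1-fold further down than that of Akr1b3 (-5.13 ± 0.29 on the log2 scale). It was 54.3-fold further down than that of Akr1b8 (-5.76 ± 0.29) and 63.6-fold further down than that of Akr1b10 (-5.99 ± 0.29). These gaps contain the Akr1b7 value by which the family was chosen, and no replicate stands behind them. With normexp correction they were -4.33, -4.93 and -5.17.

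**Figure D1:**
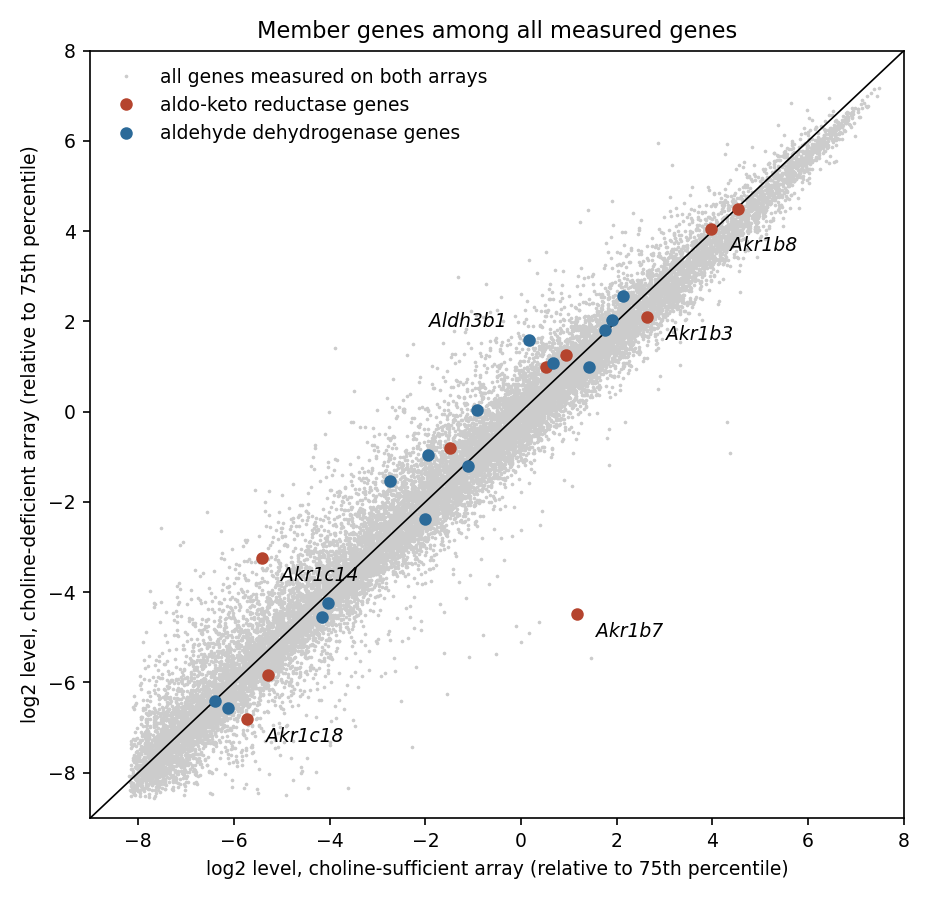
Scaled log2 level of each gene measured on both arrays, relative to the array's 75th percentile, with the choline-sufficient array on the x axis and the choline-deficient array on the y axis. Grey points are all 19816 genes, red points aldo-keto reductase genes, blue points aldehyde dehydrogenase genes, and the line marks equal levels. Akr1b7, with a difference of -5.67, lies far below the line, while Akr1b3 (-0.54) and Akr1b8 (0.09) lie near it.

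The Akr1c genes, most of which encode hydroxysteroid dehydrogenases, were dim in 661W cells. Of the 9 genes of this subfamily, Akr1cl included, 3 were measured. Akr1c14, which encodes a hydroxysteroid dehydrogenase, had a signal of 169 without choline and 30.1 with it. That is 2.16 ± 0.21 on the log2 scale, 4.46-fold higher and the highest difference of any member. It was 1.13 with normexp correction. Akr1c18 encodes the enzyme that inactivates progesterone. Its signal was 14.4 without choline and 24.1 with it, 2.11-fold lower at -1.08 ± 0.22. With normexp correction it was -0.44 and no longer 1.5-fold apart. Both of its signals are near background. Akr1c13 stood at 28.1 and 32.9, 1.48-fold lower at -0.56 ± 0.21, and passed 1.5-fold with 3 other scalings (median, quantile and cyclic loess). The dim genes of this subfamily thus lay on both sides of 0.

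Akr1c20 was above background at 1 of its 2 probes, on the choline-deficient array alone. There the signal was 7.78, against 3.20 on the other array, a difference of 0.95 ± 0.49. Set against 4.26, the lowest signal called well above background on the choline-sufficient array, it was 1.45-fold higher after scaling. That figure leaves out the error. Akr1c6, whose signals were 4.20 and 1.69, was well above background on neither array. The same was true of Akr1c12, Akr1c19, Akr1c21 and Akr1cl, with signals from 0.852 to 1.49. Akr1d1, the steroid reductase gene of bile acid synthesis, was not well above background either, at 1.17 and 1.15.

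Among the other aldo-keto reductases, Akr1a1 encodes the general aldehyde reductase that mice also need to make ascorbate. Its signals were 36519 without and 29734 with choline, a difference of -0.03 ± 0.20 that was above 0 with quantile, cyclic loess and spike-in scaling (0.23 to 0.24). Akr1e1, which encodes a reductase of anhydrofructose, had signals of 3195 and 1848 and was 1.37-fold higher at 0.46 ± 0.20, and 0.73 with spike-in scaling. Akr7a5, an aldehyde reductase gene whose product acts on succinic semialdehyde and aflatoxin dialdehyde, had signals of 918 and 455. It was 1.60-fold higher at 0.68 ± 0.20, and 0.56 with median scaling, just under 1.5-fold.

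**Figure D2:**
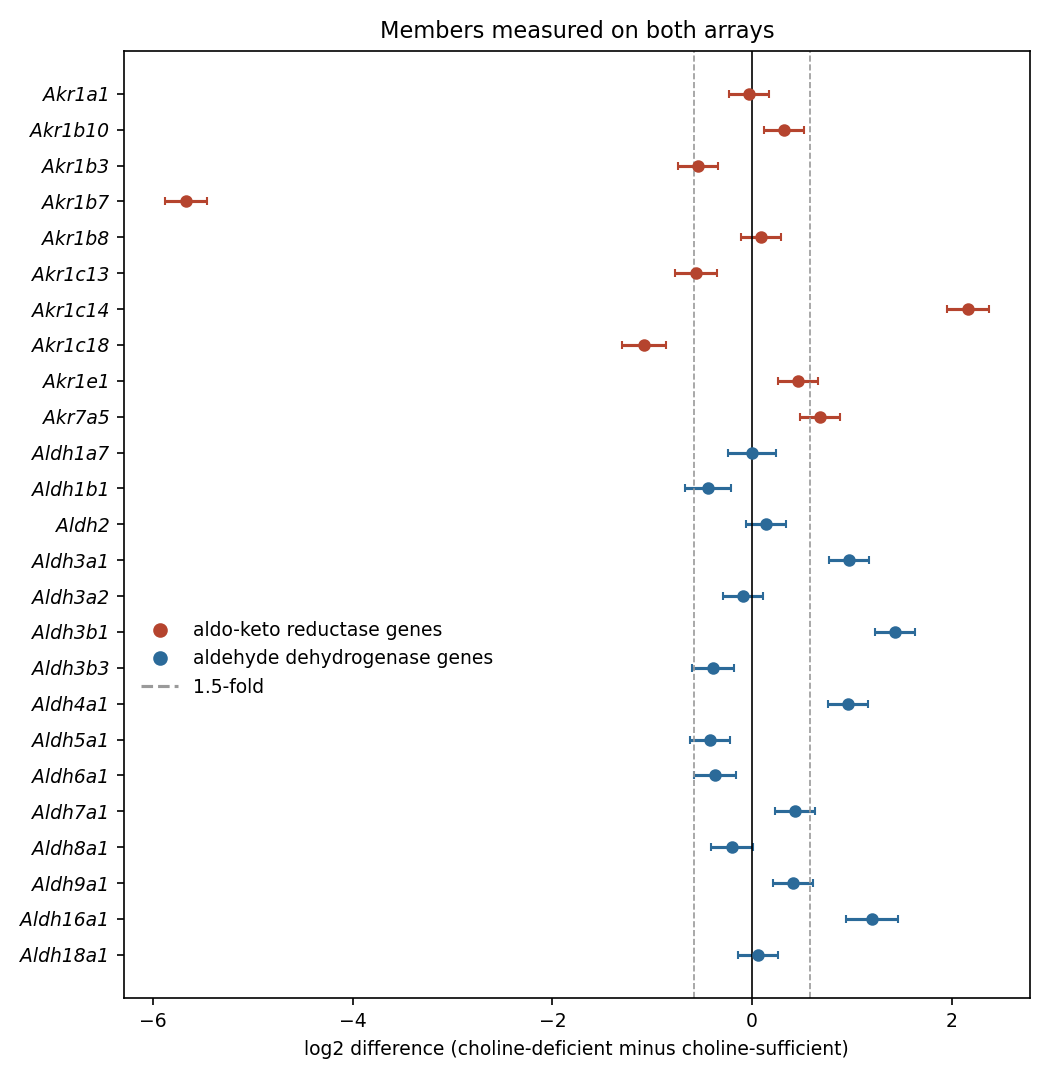
Log2 difference between the choline-deficient and the choline-sufficient array (x axis) for the 25 members measured on both arrays (y axis). Bars are the scanner software's error, red marks Akr and blue Aldh genes, and dashed lines mark 1.5-fold. Akr1b7 at -5.67 and Akr1c14 at 2.16 are the extremes, and the Aldh genes run from -0.44 to 1.43.

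Of the 16 Aldh genes 15 were measured, with 4 at least 1.5-fold higher without choline (26.7%, against 14.8% of all genes) and 0 lower (against 14.1%). In either direction that is 26.7% of them, where 28.9% of all genes were so far apart. Of the 10 measured Akr genes 2 were higher and 2 lower, which is 20.0% each and 40.0% in either direction. The largest differences among the Aldh genes were those of Aldh3b1 (1.43), Aldh16a1 (1.20), Aldh3a1 (0.97) and Aldh4a1 (0.96). With only a gene's brightest probe Aldh16a1 and Aldh3a1 were both 0.68, while Aldh4a1 stayed at 0.96.

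The Aldh3 enzymes oxidise medium and long-chain aldehydes that come from lipids. Aldh3b1, whose product acts on lipid peroxidation aldehydes, had a signal of 4865 without choline and 1432 with it. It was 2.70-fold higher at 1.43 ± 0.20. Aldh3a1, known as an abundant protein of the corneal epithelium, was 1.96-fold higher at 0.97 ± 0.20. Its 2 probes share 53 bases, starting at positions 1668 and 1675 of the transcript, and still gave unlike values. The first had signals of 997 and 494, a difference of 0.68, and the second 677 and 226, a difference of 1.25. Both lay above 1.5-fold. Aldh3a2, the fatty aldehyde dehydrogenase gene, had signals of 702 and 594, a difference of -0.09 ± 0.20 that was 0.18 with spike-in scaling. Aldh3b3 had signals of 68.9 and 71.9 at its measured probe (-0.39 ± 0.21), and Aldh3b2 was not well above background at either probe, with signals of 0.935 or less.

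Aldh16a1, which encodes a divergent member of the family, was 2.30-fold higher at 1.20 ± 0.26. Its bright probe had signals of 12801 and 6331, a difference of 0.68, and its dim probe 24.1 and 5.84, a difference of 1.71. The mean of these probes was 0.41 with normexp correction, under 1.5-fold. The lowest signal called well above background on the choline-sufficient array was 4.26, near that of the dim probe.

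Mitochondrial amino acid enzymes differed from one another. Aldh4a1, which completes the breakdown of proline to glutamate, had signals of 1647 without choline and 674 with it, 1.94-fold higher at 0.96 ± 0.20. Aldh18a1, which encodes the enzyme of the opposite path, the first steps of proline synthesis from glutamate, had signals of 5639 and 4301 and a difference of 0.06 ± 0.20, which was -0.06 with median scaling. Aldh5a1, the succinic semialdehyde dehydrogenase gene of GABA breakdown, had signals of 3201 and 3416 and was 1.34-fold lower at -0.42 ± 0.20. Aldh6a1, of valine and thymine breakdown, stood at -0.37 ± 0.21, with -0.25 at its bright probe (1904 and 1796) and -0.50 at its dim one (50 and 56.1). Only Aldh4a1 of these 4 genes was 1.5-fold apart.

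The genes of betaine aldehyde oxidation were both within 1.5-fold. Aldh7a1, which also serves lysine breakdown, had signals of 9571 without choline and 5632 with it at its measured probe, 1.35-fold higher at 0.43 ± 0.20. It passed 1.5-fold with cyclic loess and with spike-in scaling. Aldh9a1, which also acts in carnitine synthesis, had signals of 3408 and 2040, 1.33-fold higher at 0.41 ± 0.20, and 0.68 with spike-in scaling. With no filter on dim probes, which adds the other Aldh7a1 probe, Aldh7a1 was 0.16 and Aldh9a1 stayed at 0.41.

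The acetaldehyde dehydrogenase gene Aldh2 had signals of 6635 and 4801, a difference of 0.14 ± 0.20. Its mitochondrial relative Aldh1b1 was dim, at 17.0 without and 18.3 with choline (-0.44 ± 0.23). Aldh1a7, a close copy of the retinaldehyde dehydrogenase gene Aldh1a1, was also dim at 19.1 and 15.2, with a difference of 0.00 ± 0.24 that ran from -0.23 with normexp correction to 0.27 with spike-in scaling. Aldh8a1, of kynurenine breakdown, had signals of 85.3 and 78.2 and a difference of -0.20 ± 0.21, which was 0.07 with spike-in scaling. None of these 4 differences reached 2 times its error.

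Counting both families, 6 of the 25 members with a value (24.0%) exceeded 1.5-fold upward without choline, where 14.8% of all genes were. Those lower were 2 of 25 (8.0%), where 14.1% of all genes were. In either direction it was 32.0% of members against 28.9% of all genes, so the family as a whole stood close to the background. The split moved with scaling, to 5 higher and 4 lower with median scaling and to 10 higher and 2 lower with spike-in scaling. The shares of all genes moved too, to 12.0% higher and 20.3% lower with median scaling and to 24.2% and 5.96% with spike-in scaling. At 2-fold, 3 members were higher and 2 lower, where 7.67% and 3.88% of all genes were. The median was 0.06 over all members, 0.03 over the Akr genes and 0.06 over the Aldh genes. Each of these medians was below 0 with median scaling, at -0.06, -0.09 and -0.06.

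**Figure D3:**
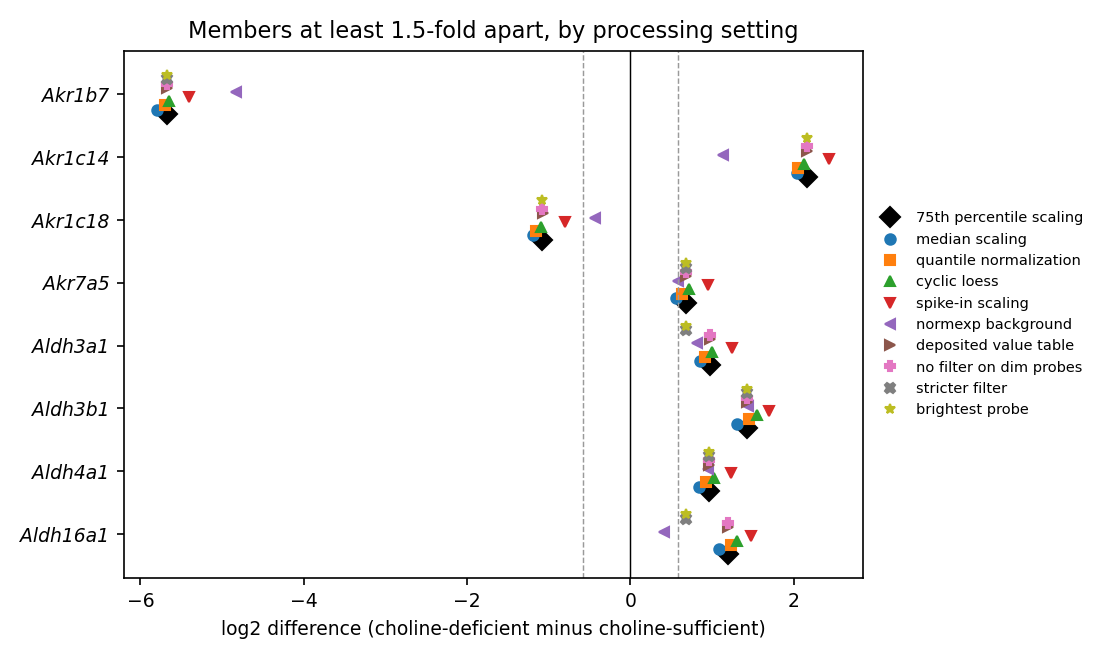
Log2 difference (x axis) of the 8 members at least 1.5-fold apart (y axis) with each processing setting; dashed lines mark 1.5-fold. Akr1b7 lies between -5.79 and -4.83 and Akr1c14 between 1.13 and 2.43, while Akr1c18, Akr7a5 and Aldh16a1 each come inside 1.5-fold with 1 setting.

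Some members that lie side by side differed in opposite directions and others did not. In the order of the RefSeq table the chromosome 6 genes are Slc35b4, Akr1b3, Akr1b8, Akr1b10, Akr1b7 and Bpgm. Slc35b4, a nucleotide sugar transporter gene, was 2.54-fold lower (399 against 807, -1.35 ± 0.20). Bpgm, which encodes bisphosphoglycerate mutase, was 1.86-fold lower (993 against 1467, -0.89 ± 0.20). Akr1b7 therefore lay between Akr1b10, slightly higher at 0.32, and a gene that was lower by much less than Akr1b7. On chromosome 13 Akr1c14 and Akr1c18 are neighbours, with differences of 2.16 and -1.08 in opposite directions, and Akr1c13, next to Akr1c18, stood at -0.56. At the other end of that row Akr1e1 stood at 0.46. On chromosome 19 Aldh3b1, at 1.43, was followed by the endosomal transporter gene Unc93b1, 1.71-fold higher at 0.77 ± 0.20, and by Aldh3b3 at -0.39. The chromosome 11 neighbours Aldh3a1 and Aldh3a2 stood at 0.97 and -0.09.

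**Figure D4:**
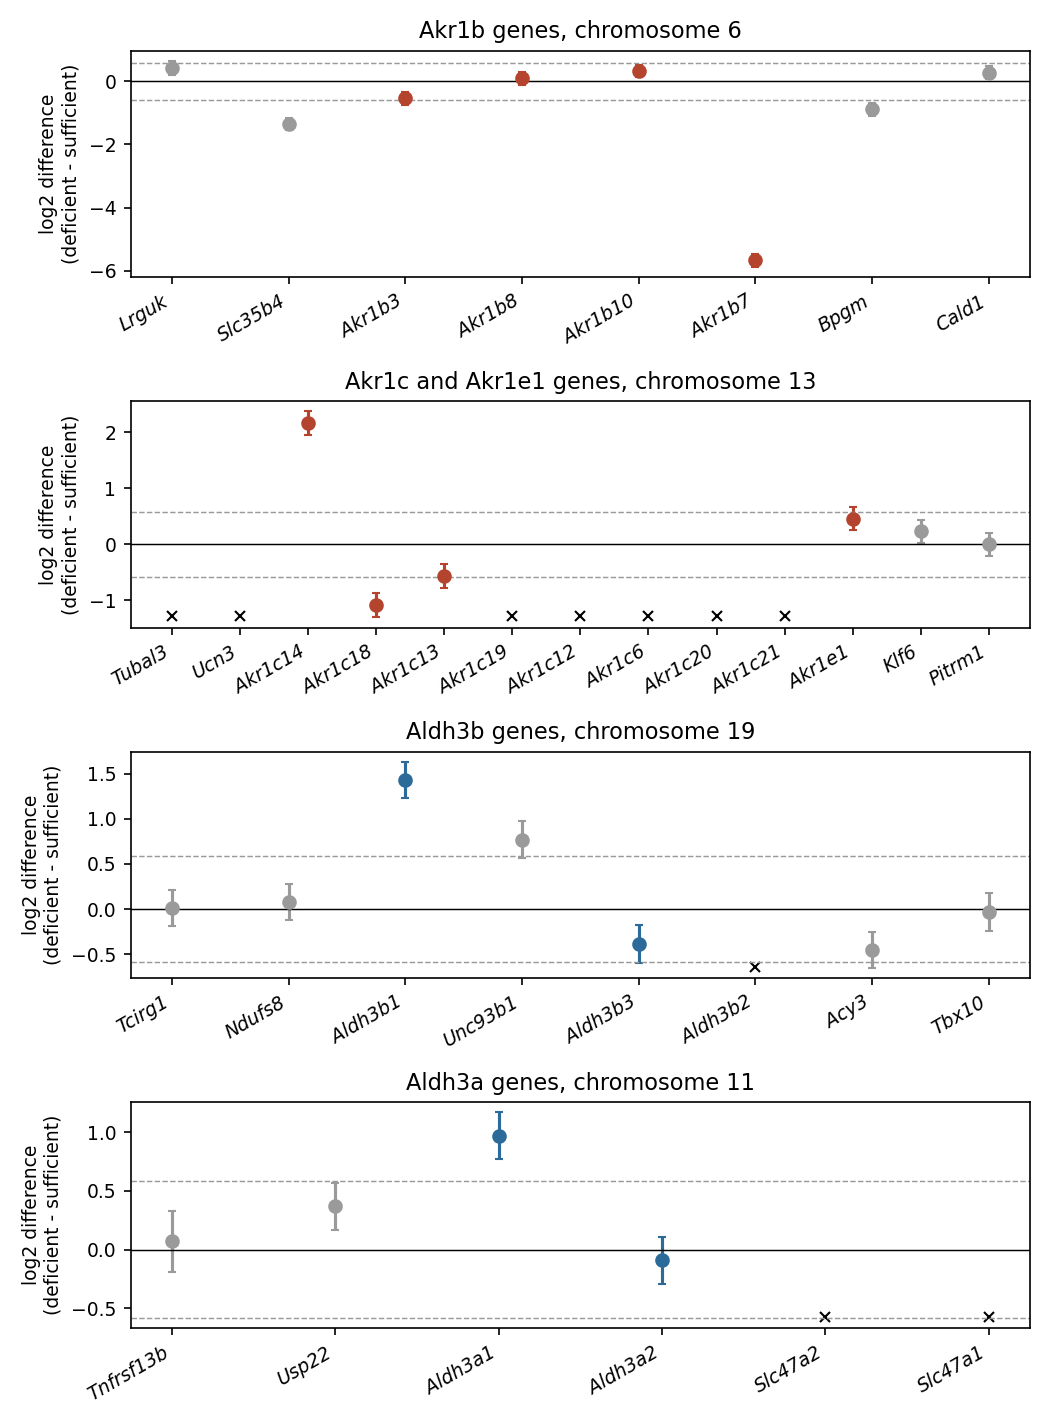
Log2 difference, choline-deficient minus choline-sufficient (y axis), for protein-coding genes in the order of their RefSeq positions (x axis, not to scale) in 4 rows of neighbouring members, with 2 genes on each side. Red and blue points are Akr and Aldh members, grey points other genes, bars the scanner error, dashed lines 1.5-fold, and crosses at the foot mark genes not well above background on both arrays. Akr1b7 at -5.67 is beside Akr1b10 at 0.32, and Akr1c14 at 2.16 is beside Akr1c18 at -1.08.

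Lists of enzymes that share substrates with the members were set beside them. These lists were chosen with earlier results of these data known. Of 22 genes listed as other reductases of carbonyl compounds, all measured, 7 were at least 1.5-fold higher (31.8%, against 14.8% of all genes) and 1 lower (4.55%, against 14.1%). The higher genes were Cbr2, Dcxr, Dhrs3, Nqo1, Nqo2, Ptgr1 and Ptgr2. Nqo1 (0.596) and Ptgr2 (0.603) were just past 0.58. With median scaling 5 of the list were higher, where 12.0% of all genes were. The median of the list was 0.17, and -0.01 with normexp correction. Dhrs3, which encodes a retinaldehyde reductase, was 6.53-fold higher (2.71 ± 0.20), Cbr2, a carbonyl reductase gene, 5.23-fold (2.39 ± 0.20) and Ptgr1, whose product reduces hydroxynonenal and prostaglandins, 3.85-fold (1.94 ± 0.20). The sorbitol dehydrogenase gene Sord, which takes up the product of the Akr1b3 enzyme, was 1.78-fold lower (-0.83 ± 0.20), in the same direction as Akr1b3. Of the 7 measured alcohol dehydrogenase and aldehyde oxidase genes 1 was higher (14.3%, against 14.8% of all genes) and 2 were lower (28.6%, against 14.1%). With normexp correction 1 was lower, where 10.3% of all genes were. The aldehyde oxidase gene Aox1 was 3.54-fold higher (1.83 ± 0.20), Adhfe1 2.67-fold lower (-1.42 ± 0.34, from signals of 5.4 and 11.5 near background) and Adh7, an alcohol dehydrogenase gene known for retinol oxidation, 1.98-fold lower (-0.99 ± 0.20).

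Several Akr and Aldh genes are textbook targets of NRF2, the transcription factor of the response to electrophiles. The 18 NRF2 targets and regulators listed were split, with 5 at least 1.5-fold higher (27.8%, against 14.8% of all genes) and 4 lower (22.2%, against 14.1%) and a median of -0.02, which was above 0 with quantile, cyclic loess, spike-in and normexp processing. With median scaling 3 were higher and 5 lower, where 12.0% and 20.3% of all genes were. The glutathione transferase genes Gsta4 and Gstm1 were 2.51-fold and 2.34-fold higher, and Hmox1, the heme oxygenase gene, and Txnrd1, the thioredoxin reductase gene, 2.39-fold and 2.05-fold lower.

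Akr1b3 and Akr1b7 products can also act as prostaglandin F synthases. In the list of prostaglandin synthesis and breakdown 12 of 16 genes were measured, with 5 higher (41.7%, against 14.8% of all genes), 2 lower (16.7%, against 14.1%) and a median of 0.34. With normexp correction 3 were higher and 1 was lower, where 8.42% and 10.3% of all genes were, and the median was 0.10. With spike-in scaling 0 were lower, where 5.96% of all genes were. The cyclooxygenase genes Ptgs2 and Ptgs1 were 3.24-fold (3978 against 975, 1.70 ± 0.20) and 2.79-fold (7413 against 2113, 1.48 ± 0.20) higher without choline. Ptges3, a prostaglandin E synthase gene, was 1.58-fold lower (-0.66 ± 0.20). The other lower gene, Prxl2b (-0.70 ± 0.33), had signals of 6.57 without choline and 8.48 with it, near background. The cyclooxygenase genes, which act before the reductases in this pathway, thus had higher signals on the array where that of Akr1b7 was lower.

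Enzymes that feed or drain the aldehyde dehydrogenases were compared last. Of 15 measured partner genes 0 were at least 1.5-fold higher (against 14.8% of all genes) and 3 were lower (20.0%, against 14.1%). The median of this list was -0.39, and it was -0.16 with cyclic loess and -0.12 with spike-in scaling. Pycr1, which completes the proline synthesis begun by the Aldh18a1 enzyme, was 2.63-fold lower (417 against 872, -1.39 ± 0.20). The methylmalonyl-CoA mutase gene Mmut, downstream of Aldh6a1, was 1.76-fold lower (-0.82 ± 0.20). The remaining lower gene, Prodh2 (-0.67 ± 0.33), had signals of 7.87 without choline and 9.97 with it, near background. With spike-in scaling this list had 1 higher and 1 lower member, where 24.2% and 5.96% of all genes were.

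**Figure D5:**
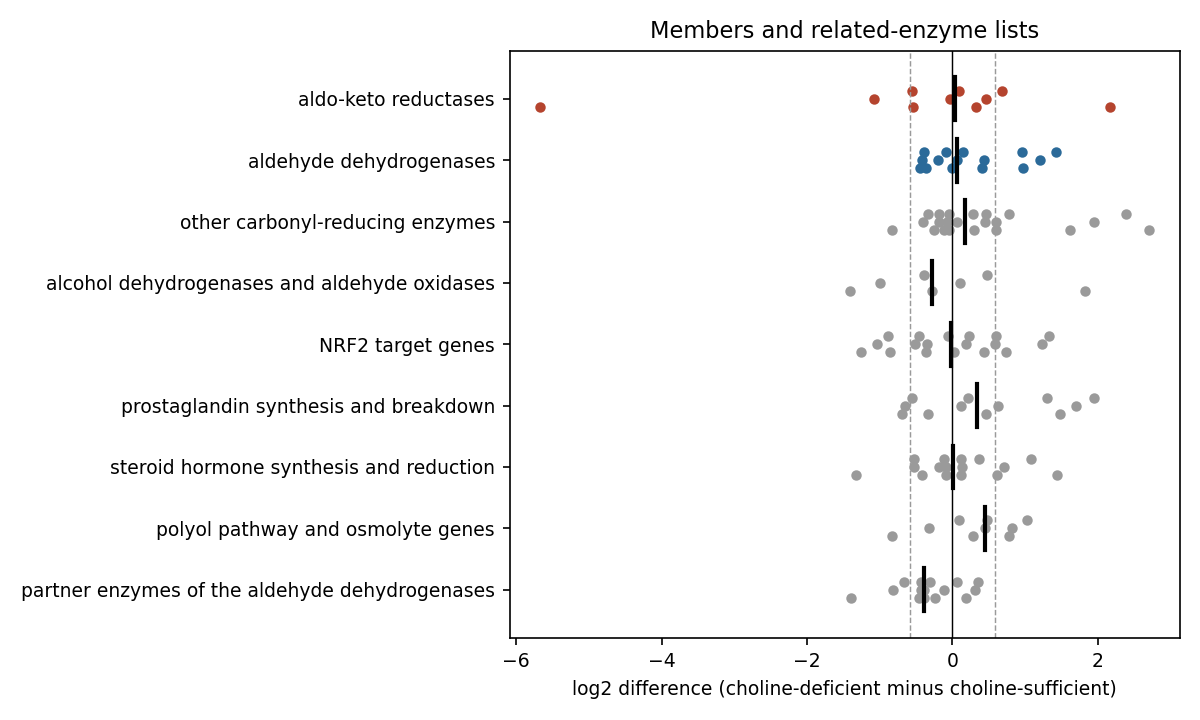
Log2 difference, choline-deficient minus choline-sufficient (x axis), of the measured members of both families and of 7 lists of related enzymes (y axis). Each point is a gene, the black bar is the median and dashed lines mark 1.5-fold. The Akr point at -5.67 is the lowest of all points, and a gene may stand in more than 1 list.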

How the data were processed

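Gene expression was measured on 1 array of 661W cells without choline and 1 with it, grouped by the treatment in the labels. Per the labels' protocols, total RNA was amplified and labelled with Cy3. The submitters' processing notes name Agilent Feature Extraction 12.1.1.1. The deposited scanner files hold each spot's intensity after background subtraction and detrending, and per the file headers arrays were not normalized to each other. The deposited series matrix is a linear ratio, the processed signal over a single constant of each array (1609.49 and 1279.72), so genes were not centred. Column medians were 0.0358 and 0.0337. The sources used here do not describe that step.

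Signals were read in R 4.3.3, and log2 values, counts and figures were made in Python 3.11.15 with numpy 2.4.6, pandas 2.3.3 and matplotlib 3.10.9. Each array was divided by its 75th percentile over non-control spots. Control and outlier spots (92 and 86 outliers) were dropped. A probe's value is the mean of its spots, and 26461 of 39426 probes were measured, meaning well above background in most of their spots on both arrays, with 0 saturated spots. A gene's value is the mean over its measured probes. A signal given for a gene with more than 1 measured probe enters through that mean of logs. Errors were propagated from the scanner software's processed errors without division by the number of spots or probes. Over 275 probes with at least 8 usable spots, the median SD across spots was 0.05. Precision is limited by the number of arrays.

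The members and the lists were chosen with earlier results of these data known. All members were eligible to be named. A list's genes were eligible if at least 1.5-fold apart and among its 3 most different in that direction. Outside that rule, every higher gene of the carbonyl reductase list was named. Alternatives were median, quantile, cyclic loess and spike-in scaling (5 bright spike-in probes), normexp background correction (limma 3.58.1, offset 50), use of the deposited ratios, 2 other filters, the brightest probe, 2-fold, and a size over 2 errors. The scripts were tested on simulated data. Promoters are from RefSeq (GRCm38.p6), and protein sequences were not used here.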

Additional observations from a re-analysis of the deposited data

How the results depend on the processing

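No test was made, since each condition has 1 array, and no array could be left out. No paired analysis was possible because each group has 1 array. The error given for a difference was taken as its spread. Median scaling shifted every gene by a constant of -0.119, and spike-in scaling by 0.271. Of 209 values of single members other than Akr1b7 under 9 alternatives, 173 moved by less than their error and 36 by more. Of the members at least 1.5-fold apart 0 changed sign. Much of this tally was fixed in advance. The deposited ratios are the same signals over the same constants and could move no value beyond rounding. A change of filter or probe can only move genes with more than 1 probe. The shift of -0.119 is smaller than every member's error and that of 0.271 is larger. Of the 8 members at least 1.5-fold apart 5 stayed past that size under every alternative that gave a value; with the stricter filter Akr1c14 and Akr1c18 gave none.

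With spike-in scaling Akr1b7 was -5.40, 10 members were higher, and the medians were 0.33 over all members, 0.30 over Akr and 0.33 over Aldh genes. With normexp correction Akr1b7 was -4.83, its gaps to Akr1b3, Akr1b8 and Akr1b10 were -4.33, -4.93 and -5.17, and 1 member was lower. Of all genes 8.42% were higher and 10.3% lower with that correction. The lower members numbered 4 with median scaling and 1 with the stricter filter, which tests fewer genes. Of all genes 20.3% and 15.5% were lower with these settings. At 2-fold 3 members were higher. The Akr median was 0.28 with both quantile normalization and cyclic loess, and -0.31 with no filter on dim probes, and the Aldh median was 0.41 with the stricter filter. The cause of the other changes was not tested. Of 261 counts and medians of the related lists and of each family's counts, 51 moved. A median has no spread of its own here, so it was set against 0.20, the median error of single genes. A count was taken as moved when it changed by more than 1.5 times. Signals near background limit Akr1c13, Akr1c14, Akr1c18, Aldh1a7, Aldh1b1, Adhfe1, Prxl2b, Prodh2 and the dim probe of Aldh16a1.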

Other observations

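Genes of steroid synthesis and reduction, whose substrates overlap with those of the Akr1c enzymes, had a median of 0.01, which was -0.11 with median scaling, -0.08 with normexp correction and -0.04 with no filter on dim probes. Past 1.5-fold, 4 of the 16 measured were higher without choline (25.0%, against 14.8% of all genes) and 1 was lower (6.25%, against 14.1%). The hydroxysteroid dehydrogenase gene Hsd17b11 was 2.72-fold higher (1.44 ± 0.20) and Srd5a1, a steroid reductase gene, 2.12-fold higher (1.09 ± 0.22). Hsd17b1 was 2.51-fold lower (28.8 against 57.6, -1.33 ± 0.21). With median scaling 3 members of this list were higher and 3 lower, where 12.0% and 20.3% of all genes were.

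The polyol and osmolyte list, chosen around the aldose reductase gene Akr1b3, had 9 measured members with a median of 0.45, 3 of them higher (33.3%, against 14.8% of all genes) and 1 lower (11.1%, against 14.1%). Taking only a gene's brightest probe gave 0.09, and spike-in scaling gave 0.72, where 5 were higher and 0 lower. Of all genes 24.2% were higher and 5.96% lower with spike-in scaling. The taurine transporter gene Slc6a6 was 2.04-fold higher (6071 against 2367, 1.03 ± 0.20), the fructose kinase gene Khk 1.76-fold (0.82 ± 0.21) and the hexokinase gene Hk1 1.72-fold (0.78 ± 0.20).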
